A study of Mus musculus with 20 samples.

Results

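The positive limb of the circadian clock and the bHLH repressors that act against it were followed in 20 mouse livers. The 5 genes were *Arntl*, *Clock*, *Npas2*, *Bhlhe40* and *Bhlhe41*, chosen by name. Their members on the arrays were the probe sets that the platform annotation assigns to exactly 1 gene of that name. Of the 5 genes, 4 had such a probe set, 1 each, out of 20777 single-gene probe sets for 19661 genes. *Npas2* had no row in the annotation table and was not analysed here.

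Whole liver RNA was hybridised to Affymetrix arrays, 1 mouse per array. There were 5 *Crem*-/- mice (KO) killed at 12 h, 5 wild-type mice (WT) killed at 12 h, 5 KO mice killed at 0 h and 5 WT mice killed at 0 h. Time 0 h was the moment of lights on and 12 h that of lights off, in a cycle of 12 h light and 12 h dark. All mice were 8 weeks old, untreated and on a mixed 129Pas x C57Bl/J background, and had free access to food. *Crem* encodes a transcription factor that responds to cAMP, and the comparison of KO with WT at both times asks how the liver clock genes stand without it. The sources used here do not describe the *Crem* allele or the sex of the mice.

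BMAL1, the product of *Arntl*, pairs with CLOCK or with the CLOCK relative NPAS2, and the pair binds E-box sequences and activates transcription. Among the activated genes are *Per* and *Cry*, whose products repress the pair, and *Bhlhe40* and *Bhlhe41*, which encode DEC1 and DEC2. DEC1 and DEC2 are bHLH proteins that bind E-boxes themselves and repress there. *Arntl* is in turn activated by ROR proteins and repressed by REV-ERB proteins through RORE sequences. In mouse liver *Arntl* RNA is known to be abundant around lights on, and RNAs of direct E-box targets towards lights off.

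Promoters were read from the RefSeq table of build GRCm38.p6, which held 7 start sites for 4 of the 5 genes and had no entry for *Bhlhe40*. Each window reached from 250 bases before the start site to 50 after it, and both strands were searched. The E-box CACGTG was found once, in *Bhlhe41*, from position -153 relative to the start site, and 7.15% of 32851 mouse promoters held it. The core of the RORE, TAGGTCA, was found once, from position 31 of the second *Arntl* start site, and 2.61% of all promoters held it. The E'-box CACGTT (4.68% of promoters), the D-box TTATGTAA (0.938%), the cAMP response element TGACGTCA (1.79%) and its shorter form TGACG (20.8%) were in none of the 7 windows. The full element contains the shorter form. No motif was found in the 3 *Clock* windows or the *Npas2* window. The 2 matches are shown because they are the elements through which the clock loops named above are known to run, with the motif in capitals. The first is the upstream part of the *Bhlhe41* promoter at chr6:145865421-145865670, minus strand, and the second is the site at chr7:113207532-113207556, plus strand, after the *Arntl* start.
Bhlhe41: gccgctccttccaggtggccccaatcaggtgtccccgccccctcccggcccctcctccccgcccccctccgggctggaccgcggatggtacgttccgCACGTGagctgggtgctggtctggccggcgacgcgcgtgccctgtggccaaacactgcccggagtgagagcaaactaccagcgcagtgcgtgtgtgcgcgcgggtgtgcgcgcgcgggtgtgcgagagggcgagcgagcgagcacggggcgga
Arntl: ggcagaaagTAGGTCAgggacggag

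Array medians lay between 7.07 and 7.24 on the log2 scale, and pairs of arrays correlated at 0.969 to 0.994 over all probe sets. *Crem* averaged 7.60 ± 0.17 in KO livers and 7.97 ± 0.06 in WT livers at 12 h, and 7.85 ± 0.30 in KO livers and 8.32 ± 0.17 in WT livers at 0 h (SD, n = 5 each). The KO and WT ranges did not overlap at 12 h and overlapped at 0 h, where KO mouse 1 (8.17) lay above WT mouse 80 (8.11) and every other KO liver lay below every WT liver. The sources used here do not say whether its probes lie in the deleted part. The study's supplementary material gives the mouse number of the liver labelled KO mouse 1 to a young WT mouse, and the label of the array was kept here. Leaving out that liver changed none of the calls given below for the 4 measured genes. WT mouse 80 at 0 h stood apart from the other 19 livers on the second principal component of all probe sets (31.4, against -15.2 to 11.3). The main *Clock* differences that use this liver are given below with and without it. The mean of 8 hepatocyte markers was 13.4 to 13.6 in all livers. All 12 h livers formed batch 5, and the 0 h livers formed batches 1 to 4, each with both genotypes, so time and batch cannot be told apart. In whole liver, fewer cells of a type and less RNA per cell cannot be told apart.

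The livers at 12 h differed from those at 0 h in all 4 measured genes in KO and in 3 of them in WT. *Arntl* and, in KO, *Clock* were lower at 12 h, while *Bhlhe40* and *Bhlhe41* were higher. Changes were called at an adjusted p under 0.05 in limma, with Benjamini-Hochberg adjustment over 25689 probe sets. By this rule 4 of 4 genes were called in KO, against 20.3% of all probe sets, and 3 of 4 in WT, against 27.8%. Of all probe sets, 9.69% were called lower and 10.6% higher in KO, and 14.3% lower and 13.5% higher in WT. The 12 h and 0 h livers did not overlap for 4 of 4 genes in KO (16.4% of all probe sets) and for 3 of 4 in WT (17.5%). The median change of all probe sets was -0.02 in KO and -0.03 in WT on the log2 scale.

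**Figure D1:**
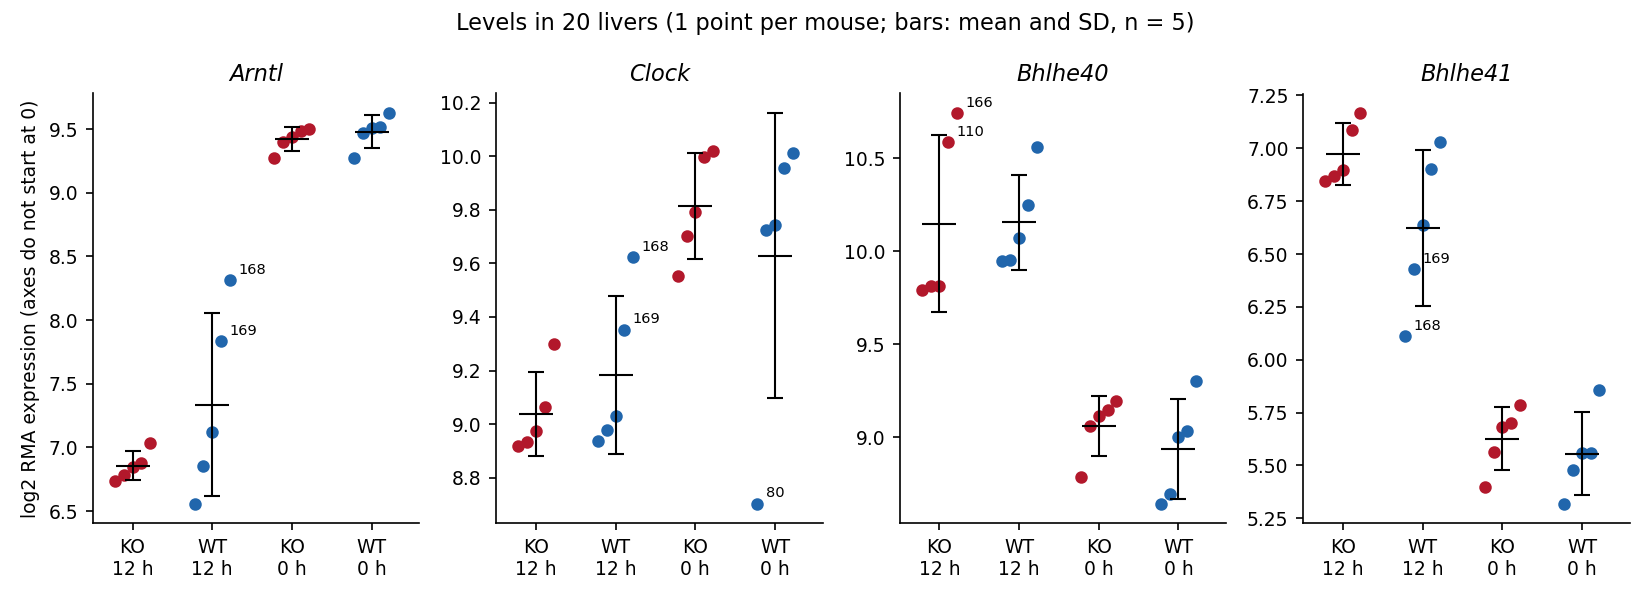
Level of the 4 measured genes (log2 RMA expression, vertical axis, separate scale per gene) in each liver, by genotype and time. Points are mice, bars the mean and SD of 5 mice. *Arntl* and *Clock* sat lower and *Bhlhe40* and *Bhlhe41* higher at 12 h, except that WT mouse 80 at 0 h lay at 8.70 for *Clock*, below every 12 h liver, and WT mice 168 and 169 stood apart for *Arntl* at 12 h.

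*Arntl*, the obligate partner in the activating pair, had levels of 6.74, 6.78, 6.85, 6.87 and 7.04 in KO livers at 12 h, against 9.27, 9.40, 9.44, 9.49 and 9.50 in KO livers at 0 h (log2). In WT livers it had 6.56, 6.86, 7.12, 7.83 and 8.32 at 12 h, against 9.27, 9.47, 9.51, 9.52 and 9.63 at 0 h. Every 12 h liver was below every 0 h liver of its genotype, and the WT livers at 12 h were spread far more widely than any other group. The change of 12 h from 0 h was -2.56 ± 0.21 (log2, SE) in KO, a 5.92-fold lower level (95% confidence interval 4.38 to 7.99). In WT it was -2.14 ± 0.21, a 4.41-fold lower level (3.27 to 5.96). The limma adjusted p was 1.87e-08 in KO and 2.13e-07 in WT. The SE is the same in both because limma pooled the spread of all 4 groups, including the wide WT group at 12 h. With only the arrays compared, the SE was 0.077 in KO (limma adjusted p = 2.18e-10) and 0.26 in WT (limma adjusted p = 0.000128). By size of change *Arntl* ranked 10 of 25689 probe sets in KO and 19 in WT. An exact two-sided permutation of the 5 and 5 mice gave p = 0.0079 in each genotype, the smallest it allows.

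*Clock*, the usual partner of BMAL1, had levels of 8.92, 8.93, 8.98, 9.06 and 9.30 in KO livers at 12 h, against 9.55, 9.70, 9.79, 9.996 and 10.02 in KO livers at 0 h. In WT livers it had 8.94, 8.98, 9.03, 9.35 and 9.62 at 12 h, against 8.70, 9.72, 9.74, 9.96 and 10.01 at 0 h. The KO groups were separate, and the WT groups overlapped through the single 0 h liver at 8.70, WT mouse 80. In KO *Clock* fell 1.71-fold (-0.77 ± 0.19, log2, SE, with a 95% confidence interval of -1.16 to -0.39 and limma adjusted p = 0.0043). In WT the difference was -0.44 ± 0.19 (-0.83 to -0.06) and did not pass (limma adjusted p = 0.078; exact permutation p = 0.127). Without WT mouse 80 it was -0.68 and passed (limma adjusted p = 0.00083), and without WT mouse 168, the highest at 12 h, it was -0.55 and passed (limma adjusted p = 0.036). With WT mouse 80 included, the means of the 4 batches at 0 h spanned 0.55 for *Clock*, more than its WT difference. The lowest of these means, 9.42, was that of the batch with WT mouse 80 at 8.70. The other livers of that batch were at 9.55 and 10.01. The batch means spanned 0.11 for *Arntl*, 0.14 for *Bhlhe40* and 0.20 for *Bhlhe41*.

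*Bhlhe40*, encoding the repressor DEC1, had levels of 9.79, 9.81, 9.81, 10.59 and 10.74 in KO livers at 12 h, against 8.79, 9.06, 9.11, 9.15 and 9.20 in KO livers at 0 h. In WT livers it had 9.95, 9.95, 10.07, 10.25 and 10.56 at 12 h, against 8.64, 8.70, 9.004, 9.04 and 9.31 at 0 h. The 2 times were separate in both genotypes, and KO mice 110 and 166 stood above the other 3 KO livers at 12 h. *Bhlhe40* rose 2.12-fold in KO (1.09 ± 0.18, log2, SE, fold interval 1.65 to 2.74, limma adjusted p = 0.000107) and 2.33-fold in WT (1.22 ± 0.18, fold interval 1.81 to 3.00, limma adjusted p = 2.81e-05).

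*Bhlhe41*, encoding DEC2, had levels of 6.84, 6.87, 6.90, 7.09 and 7.17 in KO livers at 12 h, against 5.40, 5.57, 5.68, 5.70 and 5.79 in KO livers at 0 h. In WT livers it had 6.11, 6.43, 6.64, 6.90 and 7.03 at 12 h, against 5.32, 5.48, 5.56, 5.56 and 5.86 at 0 h. The times were again separate in both genotypes, by 1.06 in KO and by 0.25 in WT between the nearest livers. *Bhlhe41*, whose promoter holds the E-box shown above, rose 2.54-fold in KO (1.35 ± 0.14, log2, SE, fold interval 2.09 to 3.09, limma adjusted p = 3.42e-07) and 2.10-fold in WT (1.07 ± 0.14, fold interval 1.72 to 2.55, limma adjusted p = 5.98e-06). The part of that E-box in this rise was not tested. At 0 h all *Bhlhe41* levels lay below the array medians of 7.18 to 7.24, and how far they stood above background could not be assessed. For both *Bhlhe40* and *Bhlhe41* the exact two-sided permutation p was 0.0079 in each genotype.

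**Figure D2:**
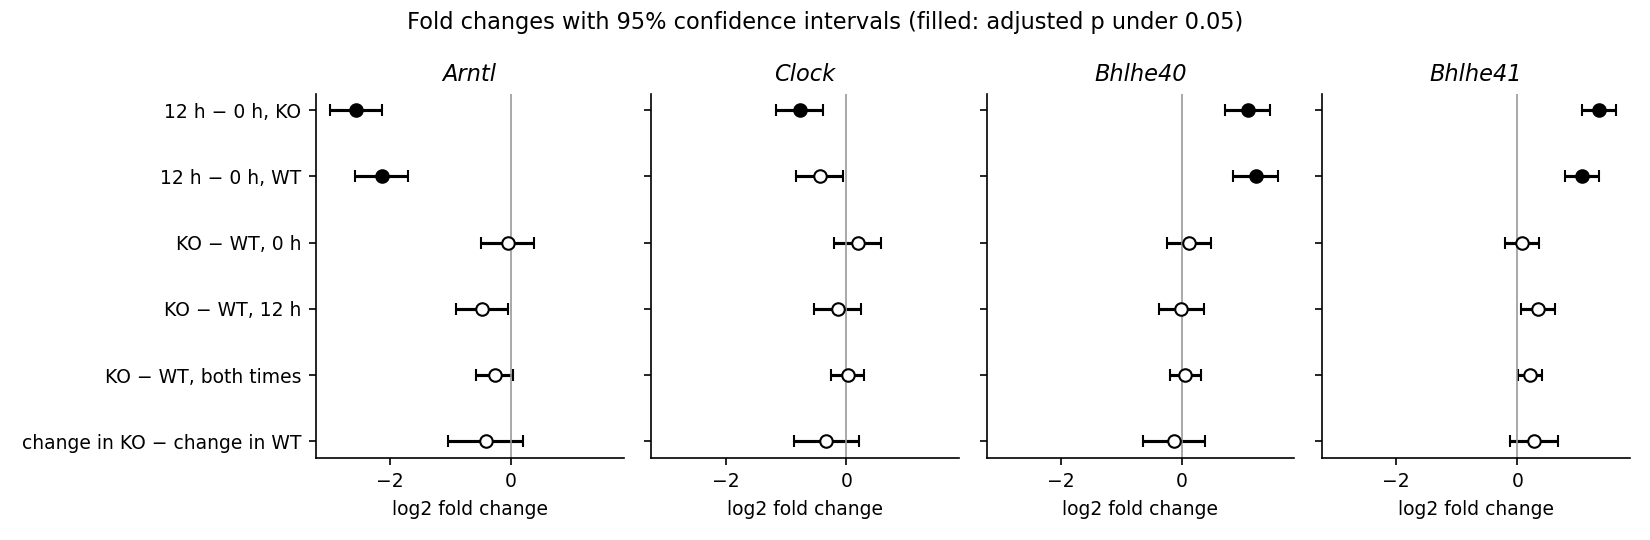
Log2 fold change (horizontal axis) of each measured gene for 6 contrasts, with 95% confidence intervals from limma; filled points have an adjusted p under 0.05. All filled points belong to the comparison of 12 h with 0 h, and *Clock* in WT (-0.44) is the open one among these.

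None of the 4 genes passed for genotype at either time. At 12 h *Arntl* averaged 6.86 ± 0.11 in KO livers and 7.34 ± 0.72 in WT livers (SD, n = 5 each). The difference was -0.48 (95% confidence interval -0.91 to -0.05; limma adjusted p = 0.344; exact permutation p = 0.23), and all KO values lay inside the WT range. *Bhlhe41* averaged 6.97 ± 0.15 in KO livers and 6.62 ± 0.37 in WT livers at 12 h, a difference of 0.35 (0.07 to 0.63; limma adjusted p = 0.290; exact permutation p = 0.087). Without WT mouse 168 these differences were -0.24 for *Arntl* and 0.22 for *Bhlhe41*. *Clock* differed by -0.15 (-0.53 to 0.24), or by -0.037 without WT mouse 168, and *Bhlhe40* by -0.01 (-0.37 to 0.36) at 12 h. By limma, 0 of 4 genes were called, against 0.0234% of all probe sets, and 2 of 4 had an unadjusted p under 0.05, against 12.5%. The KO and WT livers overlapped for all 4, and 2.42% of all probe sets did not overlap.

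At 0 h *Arntl* averaged 9.42 ± 0.09 in KO livers and 9.48 ± 0.13 in WT livers (SD, n = 5 for each of these means). *Clock* averaged 9.81 ± 0.20 in KO livers and 9.63 ± 0.53 in WT livers. *Bhlhe40* averaged 9.06 ± 0.16 in KO livers and 8.94 ± 0.27 in WT livers, and *Bhlhe41* 5.63 ± 0.15 in KO livers and 5.55 ± 0.20 in WT livers. The groups overlapped for each gene. The differences of KO from WT were -0.06 for *Arntl* (95% confidence interval -0.49 to 0.38), 0.18 for *Clock* (-0.20 to 0.57), 0.12 for *Bhlhe40* (-0.24 to 0.49) and 0.07 for *Bhlhe41* (-0.21 to 0.35). These intervals use the spread pooled over both times. For *Arntl* the SE was 0.21, and 0.080 with only the 0 h arrays compared, where it was not called either. Without WT mouse 80 the difference for *Clock* was -0.047. Within batches 1 to 4 the same differences ran from -0.25 to 0.13 for *Arntl*, from -0.02 to 0.20 for *Clock*, from -0.52 to 0.44 for *Bhlhe40* and from -0.08 to 0.14 for *Bhlhe41*, with 1 or 2 mice per genotype and batch. The 0.20 for *Clock* was that of batch 3, which held WT mouse 80. There KO mouse 144 was at 9.55, WT mouse 145 at 10.01 and WT mouse 80 at 8.70. Without WT mouse 80, KO lay below WT in that batch. Limma called 0 of the 4 genes and 0 of all probe sets (0%) at 0 h. At an unadjusted p under 0.05 it found 0 of the 4 genes and 4.47% of all probe sets. Of all probe sets, 0.728% did not overlap between KO and WT.

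Averaged over both times, KO differed from WT by -0.27 for *Arntl* (95% confidence interval -0.58 to 0.04), 0.02 for *Clock* (-0.25 to 0.29), 0.06 for *Bhlhe40* (-0.20 to 0.32) and 0.21 for *Bhlhe41* (0.01 to 0.41). Limma called 0 of the 4 (0.0117% of all probe sets), and *Bhlhe41* alone had an unadjusted p under 0.05, as did 9.88% of all probe sets. Without WT mouse 168 the difference for *Arntl* was -0.15, and without WT mouse 80 that for *Clock* was -0.097. The difference between genotypes in the change over the day was tested directly. It was -0.42 for *Arntl* (-1.04 to 0.19), -0.33 for *Clock* (-0.88 to 0.21), -0.13 for *Bhlhe40* (-0.65 to 0.39) and 0.28 for *Bhlhe41* (-0.12 to 0.68), with limma adjusted p of 0.817 to 0.945. None of the 4 had an unadjusted p under 0.05 there, against 6.84% of all probe sets, and 0% were called. Without WT mouse 168 it was -0.18 for *Arntl* and 0.15 for *Bhlhe41*, and without WT mouse 80 it was -0.10 for *Clock*. The call of *Clock* in KO and not in WT is therefore not a shown difference between the genotypes.

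WT mice 168 and 169 at 12 h were picked out after their values had been seen, so their levels are given without a test. *Arntl* was 8.32 and 7.83 in these livers, against 6.56 to 7.12 in the other 3 WT livers. *Clock* was 9.62 and 9.35, against 8.94 to 9.03. *Bhlhe41* was 6.11 and 6.43, against 6.64 to 7.03, and *Bhlhe40* was 9.95 in both, against 10.07 to 10.56. For each of the 4 genes the pair lay on the side of the 0 h livers.

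Some other clock genes placed these mice in the same way. *Cry1*, a late repressor of the loop, was 9.08 and 9.06 in mice 168 and 169, against 8.42 to 8.67 in the other 3 WT livers. *Nfil3*, a repressor at D-boxes, was 9.12 and 9.01, against 8.60 to 8.67. *Dbp*, an activator at D-boxes and a direct E-box target, was 9.90 and 10.24, against 10.99 to 11.13. *Nr1d1*, encoding REV-ERB alpha, was 9.05 and 9.27, against 9.47 to 9.96. Other clock genes did not set the pair apart: *Per1* was 8.97 and 8.78, against 8.86 to 9.41, and *Per2* was 9.04 and 9.02, against 8.88 to 9.61. The array medians of mice 168 and 169 were 7.09 and 7.15, against 7.07 to 7.14 in the other 3 WT livers, and their hepatocyte marker means were 13.59 and 13.61, against 13.52 to 13.62. Their means of 8 Kupffer cell markers (9.02 and 8.94) were below the other 3 (9.24 to 9.32), and those of 7 neutrophil markers (5.80 and 5.69) were above (5.60 to 5.64). The mean of 5 cholangiocyte markers was above the other 3 (7.19 to 7.25) in mouse 169 only (7.38). The part of these in the values above was not tested.

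**Figure D3:**
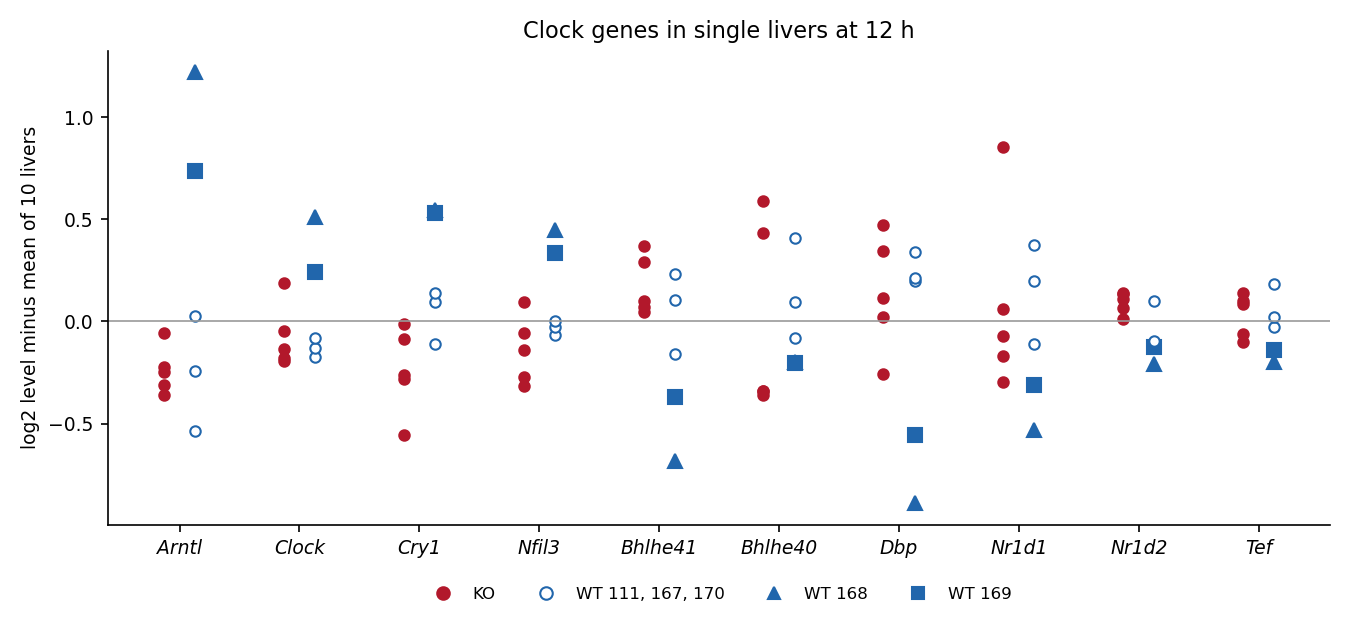
Level of 10 clock genes in each of the 10 livers at 12 h (log2 level minus the mean of the 10 livers, vertical axis), KO livers left of WT livers. WT mice 168 (triangle) and 169 (square) are the highest WT livers for *Arntl*, *Clock*, *Cry1* and *Nfil3* and the lowest for *Bhlhe41*, *Bhlhe40*, *Dbp*, *Nr1d1* and *Tef*, while for *Nr1d2* this holds for mouse 168 only.

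Over the 10 livers at 12 h, which share a batch, *Arntl* correlated with *Clock* at r = 0.884 (rho = 0.661) and with *Bhlhe41* at r = -0.852 (rho = -0.624). *Clock* correlated with *Bhlhe41* at r = -0.857 (rho = -0.818). Without mice 168 and 169 these values of r were 0.289, 0.033 and -0.321 over the other 8 livers. The 5 KO livers by themselves stood in nearly the same order for *Arntl* and *Clock*, with KO mouse 110 the highest for both and mice 55 and 166 the lowest. Over the 10 livers at 0 h *Clock* correlated with *Bhlhe41* at r = -0.747 (rho = -0.648), and at -0.781 without WT mouse 80 and KO mouse 77. *Arntl*, of narrow range at 0 h, correlated with *Clock* at r = -0.189 there. These are descriptions of few mice and of 6 pairs of genes at each time.

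The genes most like each member over all 20 arrays were found by Pearson correlation among 19661 genes. For *Arntl* they were *Cldn1*, a tight junction claudin (r = 0.988), *Clpx*, a subunit of a mitochondrial protease (0.983), and *Ddc*, the aromatic amino acid decarboxylase (0.982). After the group means were taken out, *Arntl* still correlated with them at 0.852, 0.750 and 0.815. All 3 were lower at 12 h, by -1.70, -1.78 and -1.82 in KO and by -1.46, -1.38 and -1.35 in WT (log2). In WT livers at 12 h all 3 were highest in mice 168 and 169, as *Arntl* was. *Cldn1* was 10.31 and 10.06 there, against 9.35 to 9.60 in the other 3. *Clpx* was 10.87 and 10.61, against 10.24 to 10.32, and *Ddc* 10.45 and 10.24, against 9.18 to 9.97. The genes were chosen on these same arrays, and their correlations were not computed without these livers.

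For *Clock* the most alike were *Evi5* (r = 0.953), *Rabep1* (0.894) and *Yme1l1* (0.865). *Evi5* and *Rabep1* act with Rab GTPases, and *Yme1l1* encodes a mitochondrial inner membrane protease. All 3 were low in WT mouse 80 at 0 h. In that liver *Evi5* was 9.76, against 10.43 to 10.62 in the other 4 WT livers, *Rabep1* was 8.48 against 9.07 to 9.20, and *Yme1l1* was 10.90 against 11.32 to 11.55. Within groups they correlated with *Clock* at 0.933, 0.854 and 0.773, and at 0.815, 0.589 and 0.362 without that liver. Their changes over the day were small, -0.39, -0.30 and -0.35 in KO and -0.25, -0.12 and -0.15 in WT.

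For *Bhlhe40* the most alike were *Trak1*, a motor adaptor for mitochondria (r = 0.952), *Nrg4*, encoding the secreted neuregulin 4 (0.949), and *Tmem87b* (0.942). *Nrg4* was higher at 12 h by 2.13 in KO and by 2.31 in WT, and was also high in KO mice 110 and 166 (9.49 and 9.77, against 8.81 to 9.25 in the other 3). For *Bhlhe41* the most alike were the kinase gene *Stk35* (0.960), *Coq10b*, encoding a coenzyme Q binding protein (0.953), and *Dbp* (0.952). After the group means were taken out, the correlations were lower. They were 0.720 for *Trak1*, 0.729 for *Nrg4* and 0.702 for *Tmem87b* with *Bhlhe40*. With *Bhlhe41* they were 0.665 for *Stk35*, 0.645 for *Coq10b* and 0.515 for *Dbp*. The points of all these correlations share the 2 times and their separate batches.

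The rest of the clock was described from 8 lists of genes, all on the log2 scale and with the same test. Of all probe sets, 10.6% rose and 9.69% fell in KO, and 13.5% rose and 14.3% fell in WT. Of the 6 E-box feedback repressors, 5 rose at 12 h in both genotypes and 1 fell in KO, with a median change of 1.53 in KO and 1.66 in WT. *Ciart*, a repressor of CLOCK-BMAL1, rose by 2.56 in KO and 3.06 in WT, *Per3* by 1.91 in KO and 2.03 in WT, *Per1* by 1.86 in KO and 2.02 in WT, and *Per2* by 1.21 in KO and 1.29 in WT. *Cry1* fell by 0.53 in KO (limma adjusted p = 0.0055) and differed by -0.21 in WT (limma adjusted p = 0.237). These E-box targets thus moved the same way over the day as *Bhlhe40* and *Bhlhe41*, apart from *Cry1*.

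Among the 4 measured of 5 RORE factors, the REV-ERB genes *Nr1d2* (2.87 in KO, 2.59 in WT) and *Nr1d1* (1.57 in KO, 1.38 in WT) rose, and *Rorb* fell in WT (-0.37; -0.19 in KO, not called). The REV-ERB proteins are known to repress *Arntl*, which was lower at 12 h, and their part in that change was not tested. Of the 4 D-box factors, *Dbp* (2.99 in KO, 2.80 in WT), *Tef* (1.81 in KO, 1.70 in WT) and *Hlf* (0.62 in KO, 0.50 in WT) rose and *Nfil3* fell (-1.65 in KO, -1.47 in WT). Of 7 measured of 8 output genes with E-boxes, 6 rose in both genotypes, with a median of 1.41 in KO and 1.44 in WT over all 7. They included *Wee1*, a cell cycle kinase (2.48 in KO, 2.53 in WT), *Usp2*, a deubiquitinase (2.67 in KO, 2.46 in WT), *Nampt*, of NAD synthesis (1.41 in KO, 1.46 in WT), and *Alas1*, of haem synthesis (1.81 in KO, 1.44 in WT).

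Of 10 measured of 14 cofactors of CLOCK-BMAL1, 6 rose in each genotype, with a median of 0.27 in KO and 0.26 in WT over all 10. *Cipc*, an inhibitor of CLOCK, rose by 0.46 in KO and 0.58 in WT, and the deacetylase gene *Sirt1* by 0.42 in KO and 0.54 in WT. Of 8 measured of 12 clock kinases and ubiquitin ligases, 1 rose in KO and 2 in WT, *Fbxw11* by 0.45 in both. The relatives of the measured members in the same protein families were also counted. By the same rule 20.3% of all probe sets were called in KO and 27.8% in WT, in either direction. The counts in this paragraph were not tested against these shares. Of 13 other bHLH-PAS genes, 3 rose in KO, while 4 rose and 1 fell in WT, with a median of -0.10 in KO and -0.06 in WT. *Hif1a*, of the oxygen response, rose by 0.46 in KO and 0.68 in WT, and *Arntl2*, the paralogue of *Arntl*, differed by 0.03 in KO and 0.09 in WT without passing. Of 10 other bHLH-Orange repressors, the family of DEC1 and DEC2, 1 rose and 2 fell in KO and 2 fell in WT, with *Hes5* at -0.34 in KO and -0.64 in WT and a median of -0.04 in KO and -0.12 in WT.

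**Figure D4:**
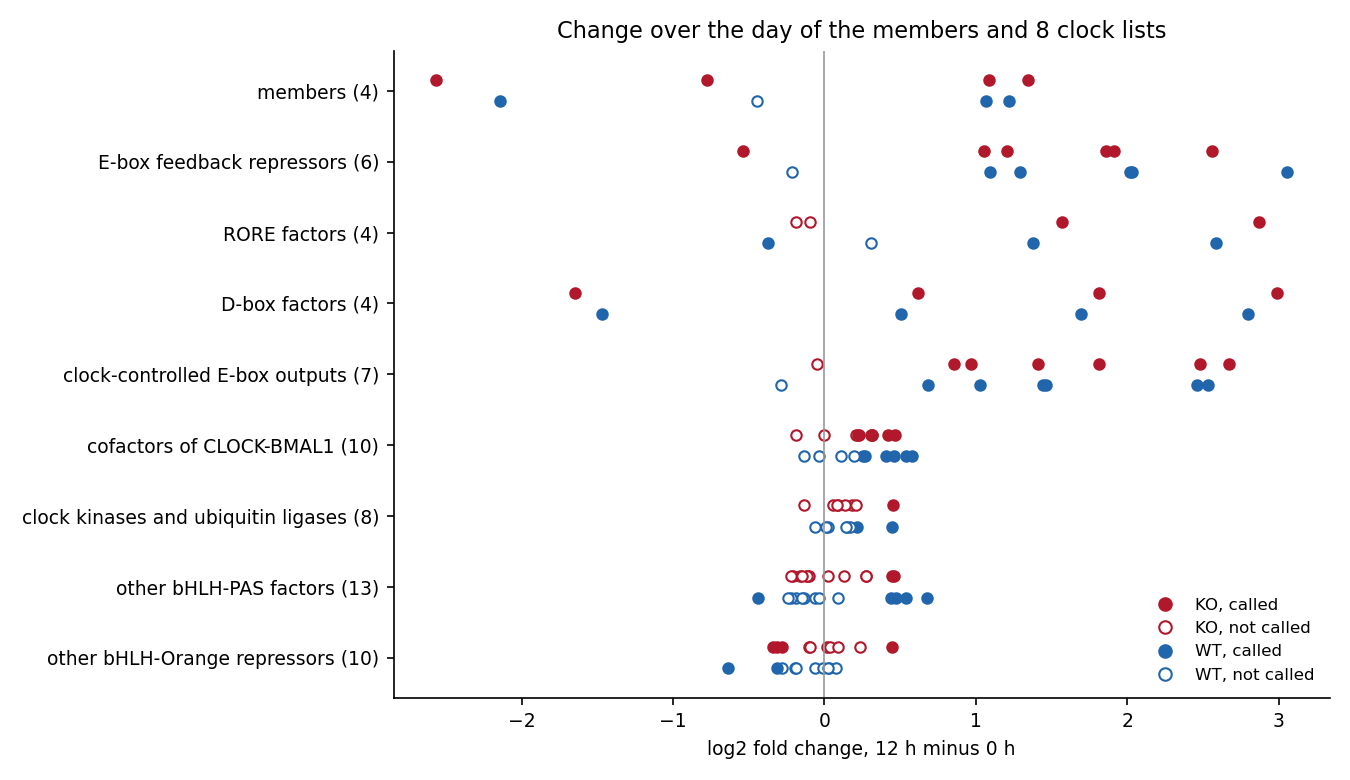
Change of 12 h from 0 h (log2 fold change, horizontal axis) of the 4 measured genes described here (row "members") and of the measured genes of 8 clock lists, KO above WT in each row; filled points have an adjusted p under 0.05. *Arntl* (-2.56 in KO, -2.14 in WT) and *Nfil3* (-1.65 in KO, -1.47 in WT) are far to the left, and the bHLH relatives at the bottom lie between *Hes5* (-0.64) and *Hif1a* (0.68), both in WT.

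None of the genes of the 8 clock lists was called for genotype at 12 h, at 0 h or over both times, and none passed the test of a difference between genotypes in the change over the day. Of the marker lists for 7 liver and blood cell types, that for Kupffer cells had the most calls for time in WT. Of its 8 markers, 2 fell in KO and 6 in WT, against 9.69% and 14.3% of all probe sets. Their mean level was 9.06 to 9.43 in KO livers at 12 h, against 9.27 to 9.77 in KO livers at 0 h, and 8.94 to 9.32 in WT livers at 12 h, against 9.45 to 9.78 in WT livers at 0 h. The mean of 5 cholangiocyte markers was 7.16 to 7.34 in KO livers at 12 h, against 7.38 to 7.52 in KO livers at 0 h. In WT livers it was 7.19 to 7.38 at 12 h, against 7.35 to 7.72 at 0 h. Of these 5 markers, 1 was called lower in each genotype. The part of these cell markers in the changes of *Arntl*, *Clock*, *Bhlhe40* and *Bhlhe41* was not tested. No neutrophil or lymphocyte marker was called for time in either genotype.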

How the data were processed

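Values as deposited are on the log2 scale, 1 per probe set and array, after RMA (background correction and normalisation, named without a version in the submitters' notes). Signal over background could not be assessed, and the text compares no level between genes. Of 35557 probe sets, 9868 without values were left out. Of the 25689 others, 232 carried several gene symbols and 4680 none, and these were tested but not named. The highest probe set by mean stood for a gene in the lists. Samples were grouped by labelled genotype and time. The fit used lmFit and eBayes of limma 3.58.1 (R 4.3.3) with 4 group means over all 20 arrays. Calls were made at a Benjamini-Hochberg adjusted p under 0.05. The fit was also run on simulated data with normal noise of equal spread in all groups and no batches. Those settings differ from these data, so that run does not cover batch, unequal spread or single outlying livers. Intervals are at 95%. Limma p-values and intervals rest on the spread between mice pooled over the 4 groups, and 5 mice per group limit the precision. Exact permutation tests were two-sided. Named were all members, the 3 genes most correlated with each, up to 4 list genes per direction called for time in WT, and direct relatives, while *Cry1* and the mouse values were added after values were seen. Members and lists were chosen with earlier results of these data known. Alternatives were a batch block, only the arrays compared, quantile normalisation, median centring, a brightness filter, array weights, a trended robust prior, and each mouse left out in turn.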

Additional observations from a re-analysis of the deposited data

Results flagged for a closer look

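*Clock* in WT mouse 80 at 0 h was 8.70, against 9.72 to 10.01 in the other 4 WT livers at 0 h. It stood apart from its group by a gap of 0.779 of the group's whole range. Chance sets apart about 1 in 20 groups, and 16 groups (4 genes in 4 groups) were looked at. The whole array of this liver also stood apart. Its array median (7.24) and its mean of 8 stellate cell markers (8.99) were the highest of the 20 livers, its mean of 8 hepatocyte markers (13.44) was the lowest, and its second principal component was 31.4, against -15.2 to 11.3 in the others. The part of these in its *Clock* level was not tested.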

How the results depend on the processing

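No paired analysis was possible because each mouse number occurs in 1 group only. *Arntl*, *Bhlhe40* and *Bhlhe41* kept their direction and call over the day in both genotypes, and *Clock* in KO, under every alternative that gave a value, and *Bhlhe41*, removed by the brightness filter, had none there. *Clock* in WT (-0.44, not called) was called under quantile normalisation (-0.52, adjusted p = 0.038) and array weights (-0.55, adjusted p = 0.020), and ran from -0.68 to -0.35 with 1 mouse left out. None of the 4 genes was called for genotype under any alternative. Small genotype differences changed sign: *Bhlhe40* at 12 h was 0.030 under quantile normalisation and 0.0026 with array weights, and *Clock* over both times was -0.020 with a batch block, -0.010 with centring and -0.042 with array weights. With 1 mouse left out, *Clock* at 0 h ran from -0.047 to 0.28, *Bhlhe40* at 12 h from -0.16 to 0.093, *Clock* over both times from -0.097 to 0.074 and *Bhlhe40* over both times from -0.016 to 0.11.

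Over all probe sets, the 6 called for genotype at 12 h became 3 with a batch block, 0 with only the arrays compared, 2 under quantile normalisation, 23 with centring, 23 with the brightness filter, 11 with the trended robust prior and 2 with array weights, and 1 to 37 with 1 mouse left out. The 3 over both times became 1 with the brightness filter, and 2 to 9 with 1 mouse left out. Centring moved the split of calls over the day to 3676 higher and 1603 lower in KO, against 2722 and 2489, and to 5294 and 1995 in WT, against 3462 and 3682; at 12 h it moved that for genotype to 5 and 18, against 4 and 2, and over both times to 0 and 2, against 1 and 2. All 12 h livers form 1 batch, so no setting separates batch from time.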
